A study of Mus musculus with 6 samples.

Results

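Iron-sulfur clusters are small inorganic cofactors that carry electrons or hold substrates in many enzymes, and mitochondria build most of them. The desulfurase Nfs1, kept stable by its small partner Lyrm4, takes sulfur from cysteine and passes it to the scaffold protein Iscu, where iron joins it. The co-chaperone Hscb and the chaperone Hspa9 then release the cluster to the carrier Glrx5, and Isca1, Isca2, Nfu1 and Bola3 carry it on to enzymes of the respiratory chain and of lipoic acid synthesis. The kidney tubule is rich in mitochondria and relies on these enzymes for the energy of salt and solute transport.

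The 9 genes of this machinery (Nfs1, Lyrm4, Iscu, Hscb, Glrx5, Isca1, Isca2, Nfu1 and Bola3) were taken by symbol from a table of 24422 genes, and all 9 were found. The libraries were poly-A RNA of whole kidneys from C57BL/6 mice at postnatal day 13, fed a diet holding 220 ppm iron, with 3 biological replicates per group. Control kidneys carried the genotype labelled wild type. TfR1 knockout kidneys carried the genotype labelled Tfr1f/f;SixCre, in which both alleles of the transferrin receptor gene (Tfrc, also TfR1), the main route of iron into cells, have loxP sites around exons that Six2Cre removes in the progenitors of the nephron. Six2Cre does not act in the collecting duct, stroma, vessels or blood cells, and the study describes tubule cells that escaped it, so each knockout library mixes deleted and undeleted cells. In such bulk RNA, fewer cells of a type and less RNA per cell cannot be told apart.

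Total counts ran from 16591156 to 22898008 per library. The count of Tfrc did not differ between groups (DESeq2 adjusted p 0.853), so it does not check the labels. All 8 markers chosen to check the tissue were detected in every library. Control replicate 3 stood apart within its group: its summed stroma markers were 138433 normalized counts, against 69911 and 67298 in Control replicates 1 and 2, and its summed proximal tubule markers were 89424, against 164822 and 169673. Its sums were also below those of Control replicates 1 and 2 for thick ascending limb, distal convoluted tubule, collecting duct and podocyte markers. They were above them for endothelial, macrophage and erythroid markers. In the knockout group, replicate 2 had the lowest stroma sum, 36783 against 67229 and 59721 in replicates 1 and 3. It also had the highest proximal tubule sum, 236381 against 165480 and 137652. Much of that sum was Pck1, at 171509 in replicate 2 against 88960 and 88676.

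None of the 9 genes passed an adjusted p of 0.05 in either direction (DESeq2 Wald test over 16509 genes, n = 3 each). By the same rule 14.9% of all tested genes passed, 7.74% as higher and 7.18% as lower in knockout kidneys. Only Lyrm4 had an unadjusted p under 0.05, a level that 27.3% of tested genes reached. The other tests passed 0 of the 9 as well, with 1 at an unadjusted p under 0.05 in each (edgeR, which passed 5.00% of genes, and limma-voom, 5.24%). With a fold change of at least 2 required as well, 0 of the 9 and 8.87% of tested genes passed. The median log2 fold change of the 9 genes was -0.092, beside 0.0071 for all genes tested, and the single values ran from -0.44 for Lyrm4 to 0.26 for Glrx5. Of the 9 values, 7 were below 0 and 2 above it.

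How large a change the data leave possible was read from the 95% interval of each fold change. For 9 of 9 genes the DESeq2 interval lay inside a 2-fold change in both directions, and the same held with limma-voom intervals. Such intervals were found for 53.8% of tested genes. That share includes genes of few counts, whose intervals are wide. Among the 8679 tested genes whose mean count lay between those of the lowest and highest of the 9 (262 and 2949 normalized counts), it was 76.7%, and 14.1% of those genes passed the adjusted p. A 1.5-fold change lay outside the interval in both directions for 6 of the 9, the exceptions being Glrx5, Hscb and Lyrm4. Of the other lists described below, 6 of 9 cytosolic assembly genes lay within this narrower limit. So did 8 of 15 genes for mitochondrial import, chaperones and DNA, and 6 of 14 mitochondrial iron-sulfur enzymes. Of the other assembly and transfer genes 0 of 13 did. The share of all tested genes within it was not computed, so whether 6 of 9 is unusual is not known.

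**Figure D1:**
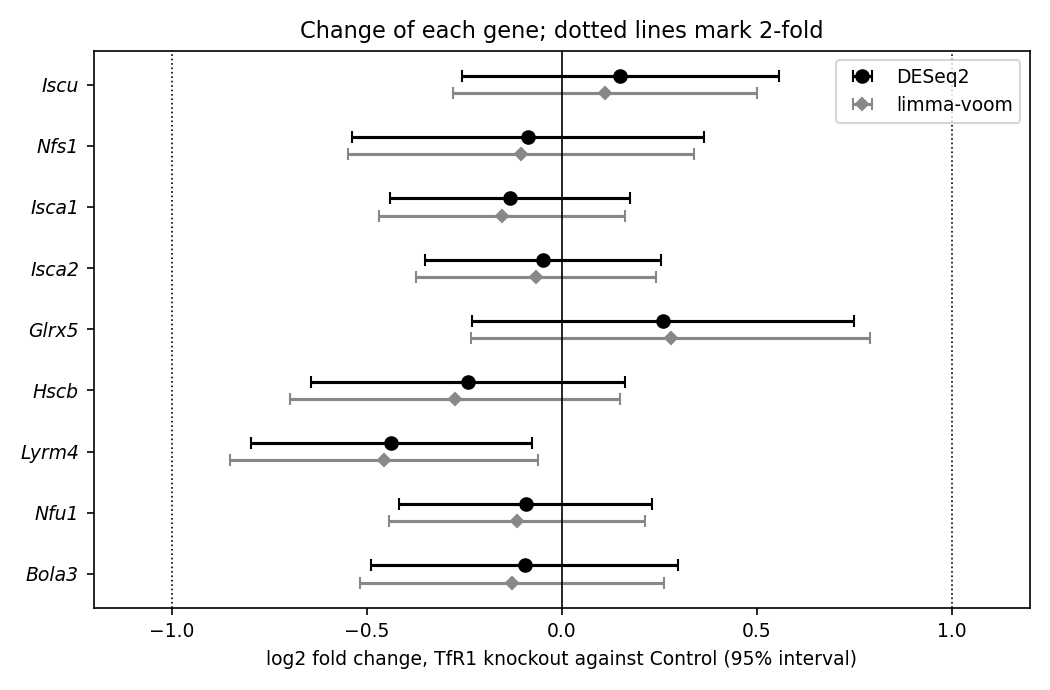
Log2 fold change of each of the 9 genes, TfR1 knockout against Control, with 95% intervals from DESeq2 (black circles) and limma-voom (grey diamonds), n = 3 libraries per group. Every interval stays between the dotted lines at a 2-fold change, and those of Lyrm4 alone leave out 0.

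Short coding stretches show what sets several of these proteins apart, and Lyrm4 is given whole because it had the largest difference of the 9. They were read 5′ to 3′ from 1 GENCODE coding transcript per gene of the mm9 build, from which residues are counted, and the capitals mark the codons of a known functional motif. In Lyrm4 these are the leucine, tyrosine and arginine codons that name the LYR family (residues 12 to 14 of 91). In Iscu they are the motif bound by Hspa9 (residues 132 to 136 of 168). In Hscb they are the histidine, proline and aspartate of its J domain (residues 101 to 103 of 234), and in Glrx5 the monothiol active site (residues 63 to 66 of 152). In Nfu1 they are a pair of cluster-binding cysteines with the codons between them (residues 154 to 157 of 199). In Isca1 and Isca2 they are the cysteine pair near the end of each protein (residues 121 to 123 of 129, and 144 to 146 of 154).
Lyrm4: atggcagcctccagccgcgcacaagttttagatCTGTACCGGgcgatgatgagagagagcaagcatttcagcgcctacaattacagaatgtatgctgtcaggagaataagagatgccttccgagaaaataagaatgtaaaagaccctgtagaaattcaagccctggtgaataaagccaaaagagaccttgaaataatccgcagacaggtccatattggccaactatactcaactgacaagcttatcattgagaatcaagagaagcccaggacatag
Iscu: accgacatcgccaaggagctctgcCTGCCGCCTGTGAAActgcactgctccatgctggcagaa
Hscb: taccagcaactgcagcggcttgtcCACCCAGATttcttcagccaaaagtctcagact
Glrx5: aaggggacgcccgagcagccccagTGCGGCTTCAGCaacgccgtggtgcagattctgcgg
Nfu1: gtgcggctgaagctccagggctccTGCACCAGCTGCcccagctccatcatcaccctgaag
Isca1: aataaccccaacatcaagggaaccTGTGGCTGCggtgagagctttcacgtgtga
Isca2: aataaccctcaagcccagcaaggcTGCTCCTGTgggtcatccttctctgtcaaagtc

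The desulfurase and its adapter were examined first. Lyrm4 (mm9 chromosome 13, 36070666 to 36209226, minus strand), the small adapter printed whole above, had 289, 299 and 316 normalized counts in the Control libraries, in replicate order, and 221, 241 and 208 in the knockout libraries. Every knockout library was below every Control library. The means were 302 ± 13.7 and 223 ± 16.3 (SD, n = 3 each), a log2 fold change of -0.44 (SE 0.18, 95% interval -0.80 to -0.076) with a DESeq2 adjusted p of 0.0906, which misses the threshold. The adjusted p was 0.159 with edgeR and 0.154 with limma-voom. With total-count and upper-quartile scaling it was 0.0218 and 0.0455, which pass, and with any 1 library left out it was between 0.115 and 0.359. Relative to the median of all genes, the change of Lyrm4 was -0.44 to -0.45 under each of the scalings.

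Nfs1 (chromosome 2, 155904665 to 155969922, minus strand), the desulfurase that Lyrm4 binds, had 1444, 1542 and 1069 normalized counts in Control libraries and 1188, 1538 and 1097 in knockout libraries. The groups overlapped almost wholly, with the lowest value of all in Control replicate 3. The log2 fold change was -0.086 (SE 0.23, DESeq2 adjusted p 0.853), and its sign turned without Control replicate 2 or TfR1 knockout replicate 3 (0.014 and 0.015). The count of Nfs1 is the least certain of the 9: annotated exons of Cpne1 and Rbm12 on the same strand cover 13.8% and 5.35% of its exon bases, and those of Romo1 on the opposite strand cover 3.53%. The other 8 genes share no annotated exon base with another gene.

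Iscu (chromosome 5, 114222757 to 114228297, plus strand), the scaffold on which the cluster forms, had 1938, 2014 and 1948 normalized counts in Control kidneys and 1872, 2757 and 1924 in knockout kidneys. The Control libraries lay within a narrow band, and TfR1 knockout replicate 2 stood above it while the other knockout libraries fell just below. The log2 fold change was 0.15 with all libraries (SE 0.21, DESeq2 adjusted p 0.689) and -0.048 without TfR1 knockout replicate 2. That library also had the lowest stroma marker sum given above. Whether its cell makeup has a part in the Iscu value was not tested.

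Hscb (chromosome 5, 111258089 to 111268796, minus strand), the co-chaperone that brings the loaded scaffold to Hspa9, had 301, 346 and 299 normalized counts in Control libraries and 276, 298 and 228 in knockout libraries. The groups did not overlap, but only by about 1 normalized count between Control replicate 3 and TfR1 knockout replicate 2. The log2 fold change was -0.24 (SE 0.21, 95% interval -0.64 to 0.16) with a DESeq2 adjusted p of 0.473. Lyrm4 and Hscb were thus the 2 of 9 genes with every knockout value below every Control value, where 16.9% of tested genes showed that pattern. None of the 9 showed the opposite pattern, which also held for 16.9% of tested genes.

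Glrx5 (chromosome 12, 106270899 to 106279120, plus strand), the carrier that takes the cluster from the chaperones, had 1566, 1591 and 936 normalized counts in Control libraries and 1789, 1565 and 1549 in knockout libraries. Control replicate 3 was far below the other 5 libraries, which lay close together. Its fold change rested on that library: the log2 value was 0.26 with all libraries (SE 0.25, DESeq2 adjusted p 0.536) and 0.048 without Control replicate 3. The same library had the lowest Nfs1 value and the highest stroma and lowest proximal tubule marker sums given above. Whether its cell makeup has a part in these values was not tested.

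**Figure D2:**
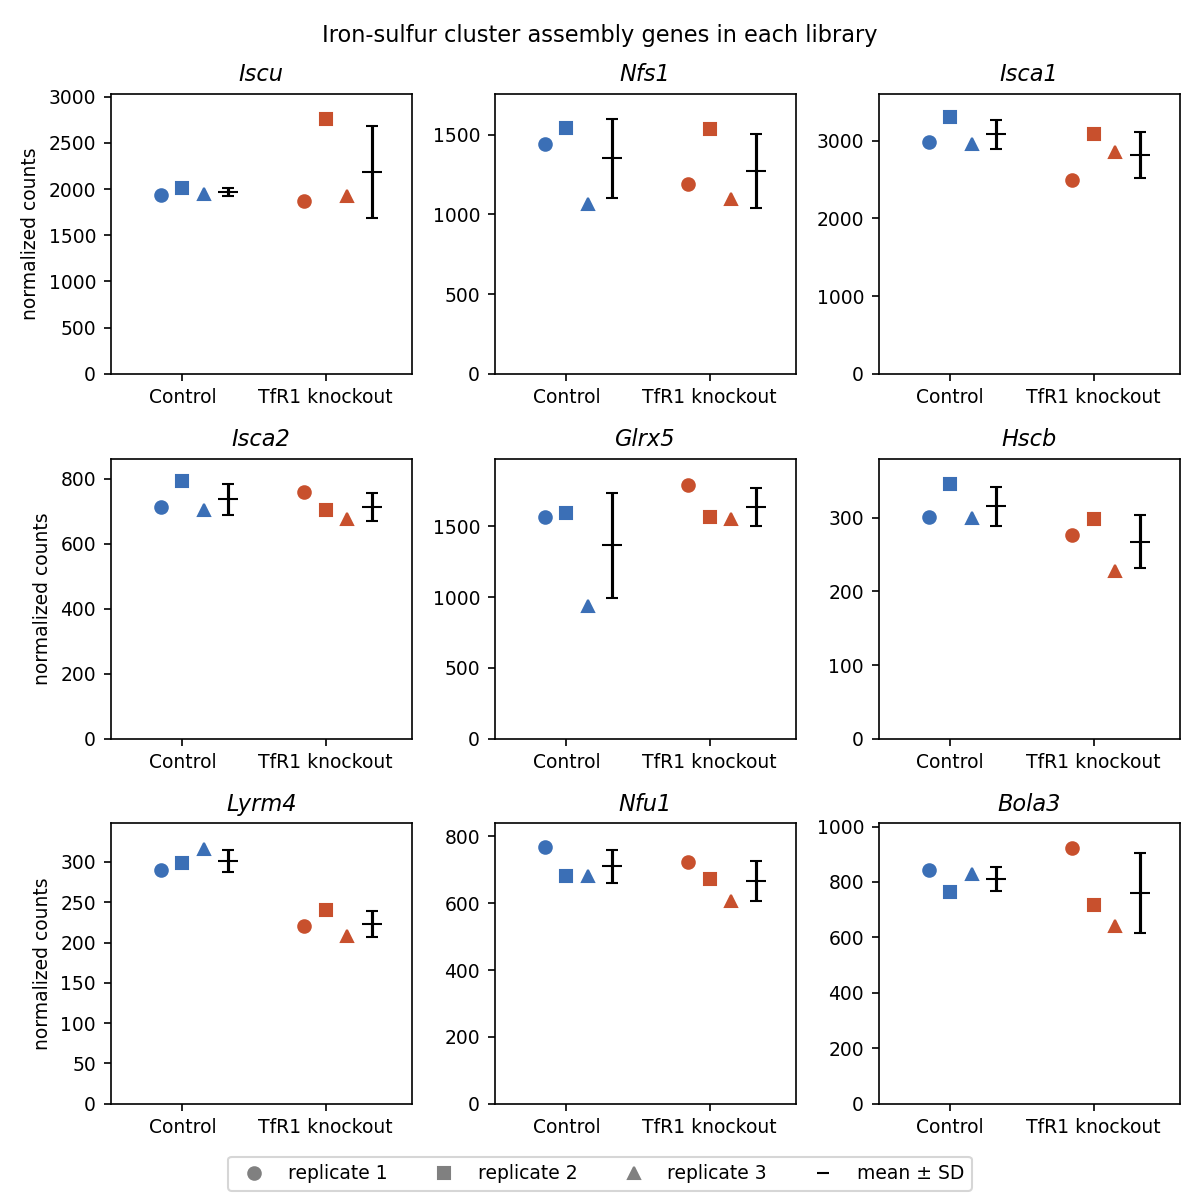
Normalized counts (vertical axes, from 0) of the 9 genes in the 3 Control (blue) and 3 TfR1 knockout (orange) libraries, with the replicate number as the marker shape and the mean ± SD in black. Lyrm4 shows a clear gap between groups (208 to 241 against 289 to 316), Glrx5 a low Control replicate 3 (936) and Iscu a high TfR1 knockout replicate 2 (2757).

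The late carriers followed. Isca1 (chromosome 13, 59856770 to 59871171, minus strand) had 2989, 3301 and 2961 normalized counts in Control kidneys and 2499, 3088 and 2858 in knockout kidneys. Isca2 (chromosome 12, 86114220 to 86116039, plus strand), which works with Isca1 in making clusters with 4 iron atoms, had 712, 792 and 704 against 758, 704 and 674. Both genes overlapped between groups. Their log2 fold changes were -0.13 (SE 0.16, DESeq2 adjusted p 0.631) and -0.048 (SE 0.15, adjusted p 0.878). The encoded proteins are identical at 30.2% of 126 aligned residues.

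Nfu1 (chromosome 6, 86959230 to 86978455, plus strand) and Bola3 (chromosome 6, 83299141 to 83310130, plus strand) are both needed to supply clusters for lipoic acid synthesis. Nfu1 had 768, 683 and 682 normalized counts in Control libraries and 724, 673 and 605 in knockout libraries. Bola3 had 843, 763 and 828 against 921, 715 and 642. Its highest and lowest values were both in knockout libraries, and its SD was 144 there against 42.9 in Control libraries. The log2 fold changes were -0.092 for Nfu1 (SE 0.17, DESeq2 adjusted p 0.770) and -0.095 for Bola3 (SE 0.20, adjusted p 0.808).

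Leaving out each library in turn made no gene of the 9 pass. Apart from Glrx5 and Iscu, described above, Bola3 moved to -0.26 without TfR1 knockout replicate 1 and to 0.016 without TfR1 knockout replicate 3, and Nfs1 to -0.24 without TfR1 knockout replicate 2. TfR1 knockout replicate 3 held the lowest value of 5 of the 9 genes, and Control replicate 2 the highest value of 4. Lyrm4, Hscb, Isca1 and Nfu1 stayed below 0 in all 6 of these fits, and Glrx5 stayed above 0.

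**Figure D3:**
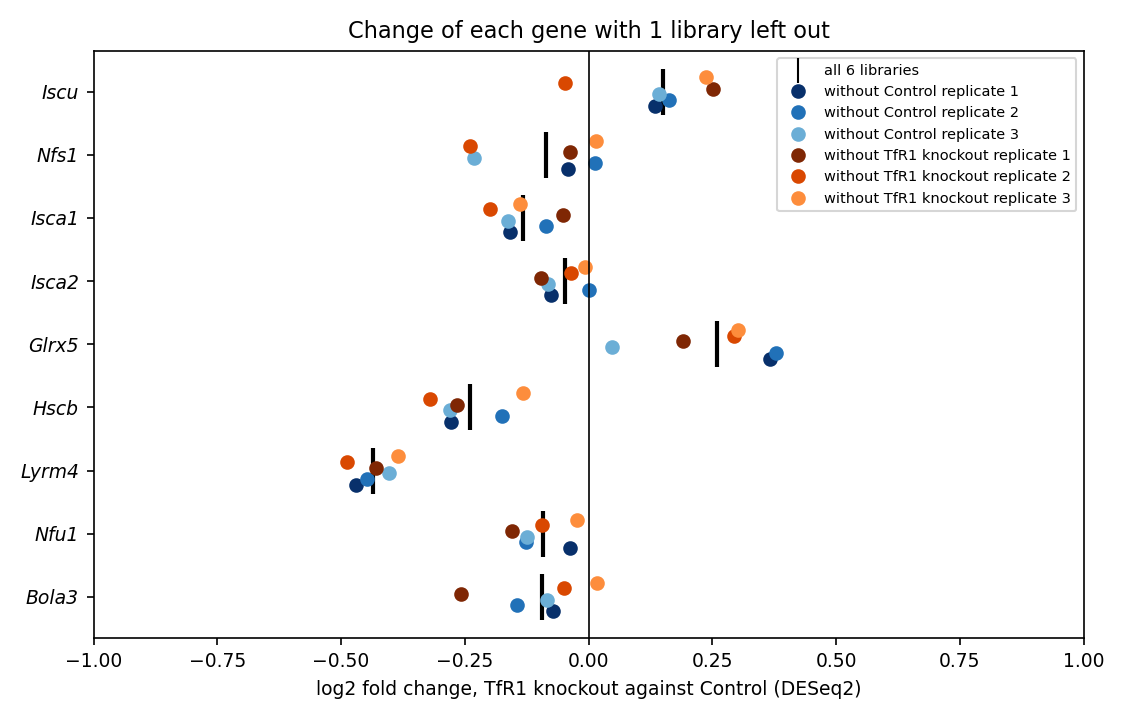
Log2 fold change of each of the 9 genes (horizontal axis, DESeq2) with all 6 libraries (black bars) and with each library left out (points). Lyrm4 stays between -0.49 and -0.38, while Glrx5 drops to 0.048 without Control replicate 3 and Iscu to -0.048 without TfR1 knockout replicate 2.

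The share of each gene in the summed counts of the 9 does not depend on scaling between libraries. Lyrm4 made up 2.67%, 2.64% and 3.25% of that sum in Control libraries and 2.15%, 2.08% and 2.13% in knockout libraries. Hscb made up 2.77%, 3.06% and 3.07% against 2.70%, 2.57% and 2.33%. For both genes every knockout share was below every Control share, and for the other 7 the groups overlapped. How common this pattern is among all genes on a like scale was not computed. In normalized counts, where the same 2 genes showed it, it held for 16.9% of tested genes. With 3 libraries against 3 the two-sided exact permutation test gave p = 0.1 for each of the pair, the smallest it can give. Any gene whose groups do not overlap reaches that value, so the test only restates the lack of overlap. It cannot decide whether the shares of Lyrm4 and Hscb differ. For the other 7 genes the same exact permutation test gave p from 0.3 to 0.8.

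The 9 genes are not equally abundant. Levels between genes were compared as RPKM, the count divided by the annotated exon length and by the library total. In Control kidneys Glrx5 was highest at 78.1 ± 18.8 (SD, n = 3), followed by Iscu at 48.4 ± 1.53, Isca2 at 45.4 ± 1.90 and Isca1 at 38.5 ± 1.5. Hscb at 18.7 ± 1.12, Nfu1 at 18.3 ± 1.28, Nfs1 at 17.2 ± 2.56 and Bola3 at 13.6 ± 1.11 came next, and Lyrm4 was lowest at 10.7 ± 0.881. Neighbours whose Control ranges overlapped were Iscu with Isca2, Hscb with Nfu1, Nfu1 with Nfs1, and Nfs1 with Bola3. Their order is therefore not settled. All places also rest on the exon length used, the union over all annotated transcripts. Bola3 was divided by 3211 bases from 9 transcripts, and Isca2 by 868 bases from 1. Their mean Control normalized counts were 811 and 736, so Bola3 is the lower of the pair only per length. Lyrm4, the lowest, still lay above 68.0% of the 17549 detected genes with an annotated length, and Glrx5 above 95.7%.

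In knockout kidneys the first 4 places and the last 2 were unchanged. In RPKM, Glrx5 stood at 87.7 ± 12.3, Iscu at 49.3 ± 6.39 and Lyrm4 at 7.31 ± 0.239. Hscb moved from the fifth to the seventh place (14.6 ± 1.27), behind Nfu1 and Nfs1, whose ranges it overlapped. On this scale, which sets each library to its total, Isca1 joined Lyrm4 and Hscb in having every knockout value below every Control value (30.3 to 35.2 against 36.9 to 39.9), while its normalized counts overlapped. That makes 3 of the 9 genes on this scale, where 21.5% of tested genes showed the pattern.

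**Figure D4:**
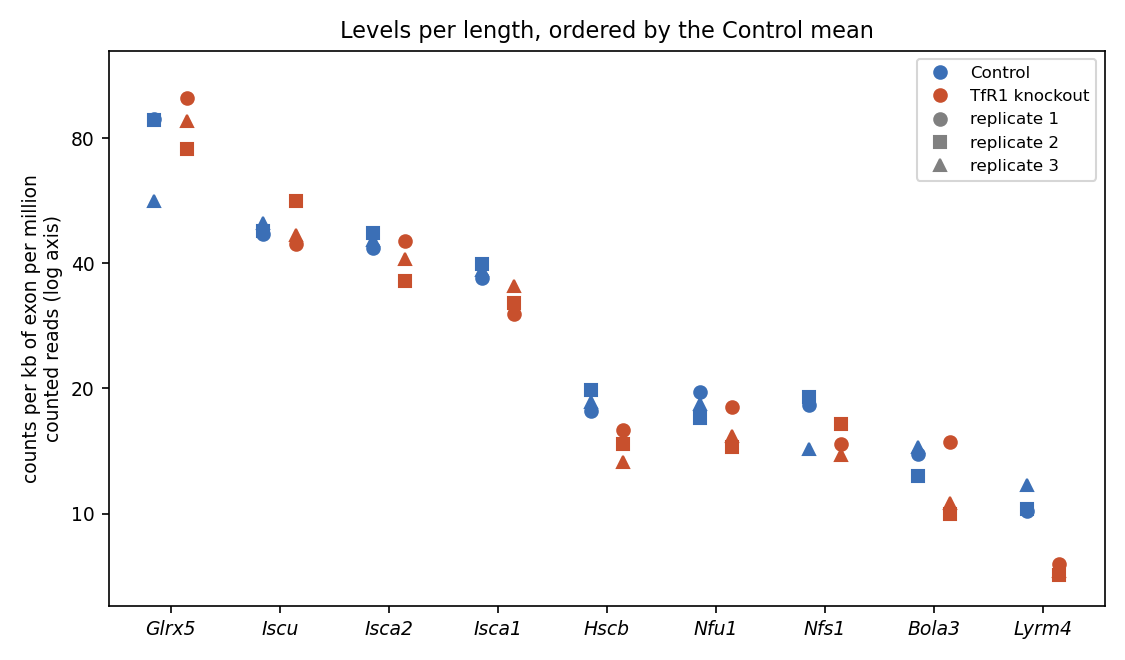
Levels per exon length (RPKM, log axis) of the 9 genes in each library, ordered by the Control mean, with Control in blue and TfR1 knockout in orange. Glrx5, Iscu, Isca2 and Isca1 lie above 30 in every library, and the other 5 genes below 20.

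The rest of the assembly and transfer pathway was followed through 13 further genes. Of these 0 rose and 1 fell at a DESeq2 adjusted p under 0.05, and their median log2 fold change was -0.14. That call was lost with edgeR and with limma-voom, which passed 0 of the 13, with 5 and 3 at an unadjusted p under 0.05.

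Hspa9, the chaperone that pulls the cluster from Iscu, had 14906, 15040 and 9336 normalized counts in Control libraries and 19595, 23413 and 17308 in knockout libraries. All knockout values were above all Control values, with a log2 fold change of 0.62 (SE 0.25) and a DESeq2 adjusted p of 0.0714. The lowest Control value was again in replicate 3. Fdxr, the reductase that feeds electrons to cluster assembly, had 1010, 320 and 246 in Control libraries against 236, 197 and 261. Control replicate 1 was far above the other 5 libraries and the groups overlapped (log2 fold change -1.18, SE 0.49, DESeq2 adjusted p 0.0876). Slc25a37, the mitochondrial iron importer mitoferrin-1, had 827, 855 and 879 against 973, 1121 and 1252, with a log2 fold change of 0.39 (SE 0.17, adjusted p 0.107). Over the 13 genes, 5 had every knockout value above and 2 every knockout value below the Control values, beside 16.9% of tested genes in each direction.

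Enzymes that receive the clusters in mitochondria were counted next. Of 14 such genes, 0 rose and 0 fell (DESeq2, with 2 at an unadjusted p under 0.05, and 0 by edgeR or limma-voom), and their median log2 fold change was 0.098. The smallest adjusted p belonged to Ndufs8, a complex I subunit with 4-iron clusters, which had 2728, 3029 and 3157 normalized counts in Control libraries against 2250, 2542 and 1884. Its log2 fold change was -0.42 (SE 0.18, DESeq2 adjusted p 0.0997). The knockout range of Ndufs8 lay wholly below that of Control.

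The cytosolic assembly genes, which depend on a product exported from mitochondria, gave the same count: 0 of 9 passed by DESeq2 (1 at an unadjusted p under 0.05), edgeR or limma-voom, with a median log2 fold change of 0.17. So did 15 genes for mitochondrial import, chaperones and mitochondrial DNA, with 0 passing by any of the 3 tests (1 at an unadjusted p under 0.05 in DESeq2) and a median of 0.11. Among the latter Cs, citrate synthase, had the smallest adjusted p (log2 fold change 0.53, SE 0.24, DESeq2 adjusted p 0.125).

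**Figure D5:**
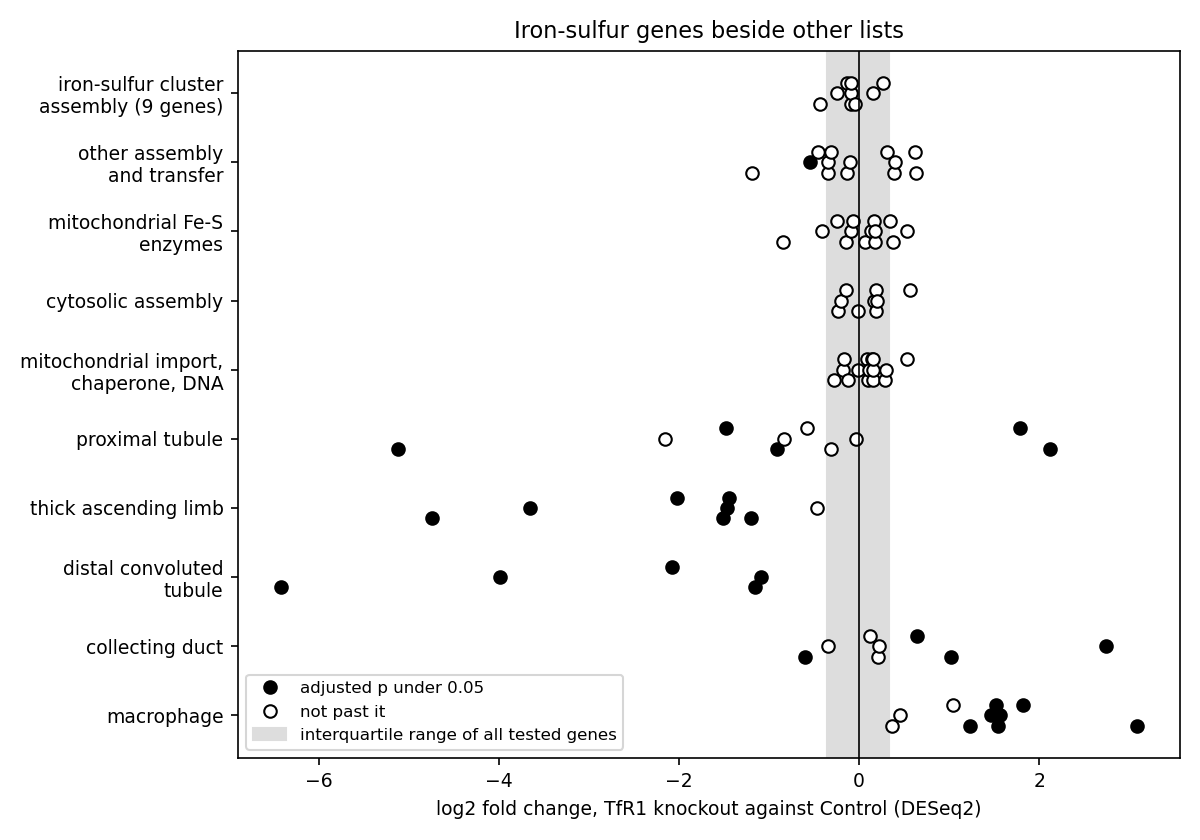
Log2 fold change, TfR1 knockout against Control (horizontal axis), of each gene in the 9 assembly genes, the other iron-sulfur and mitochondrial lists and 5 cell type lists, filled where the DESeq2 adjusted p is under 0.05. The grey band is the interquartile range of all tested genes (-0.36 to 0.33). The mitochondrial and iron-sulfur lists hold 1 filled point, while the tubule and macrophage lists hold many.

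The same libraries differed strongly in markers of kidney cell types, which is the setting in which the 9 genes were measured. Of the thick ascending limb markers 7 of 8 fell by DESeq2, with summed levels of 52773 to 119472 normalized counts in Control and 15358 to 27549 in knockout libraries, and 5 of 5 distal convoluted tubule markers fell (23190 to 39485 against 6217 to 10051). The macrophage markers rose for 7 of 10 genes (2802 to 4739 against 7788 to 9916), and collecting duct markers rose for 3 and fell for 1 of 8 (13447 to 26235 against 40174 to 67329). Without Aqp2, the water channel of principal cells, the collecting duct sums overlapped (11038 to 20654 against 16609 to 22369). Proximal tubule markers went both ways, with 2 of 10 higher and 3 lower. Podocyte markers had 1 of 5 higher, endothelial markers 0 of 5 in either direction, and stroma markers 2 of 7 lower. By edgeR, and equally by limma-voom, the markers that passed were 5 thick ascending limb, 5 distal convoluted tubule, 5 macrophage, 3 proximal tubule, 1 collecting duct, 1 podocyte and 0 stroma or endothelial markers. Of 9 erythroid markers 8 were in the table, 4 globin genes among them were listed at 0 in every library, and 1 of the 4 tested fell.

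The summed level of the 9 assembly genes was 9745 to 11331 normalized counts in Control and 9787 to 11579 in knockout libraries. These ranges overlap nearly whole. Genes with the most counts weigh most in this sum. In Control libraries Isca1 made up a mean of 29.0% of the summed counts of the 9, and Iscu 18.5%. Lyrm4 and Hscb made up 2.85% and 2.97%, so the sum says little about them. The part that the change in cell types has in the level of any of the 9 genes was not tested.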

How the data were processed

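RNA-seq counts of 3 Control and 3 TfR1 knockout kidneys were analysed. Per the labels and the study's methods, the authors made libraries with TruSeq RNA kits after poly-A selection, read them single-end, processed them with CASAVA 1.8.2 and Trimmomatic, aligned them to mm9 with TopHat2 2.0.11, kept uniquely mapped reads and counted reads per gene with HTSeq. The deposited values are raw counts without normalization. The strand setting of the counting is not given in the sources used here.

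Groups came from sample titles. DESeq2 1.42.0 (R 4.3.3; Wald test, median-ratio size factors, no covariate, Benjamini-Hochberg adjustment over all genes tested, independent filtering at 0.05) followed the study's tool. Genes were called at an adjusted p under 0.05, and also with the study's 2-fold limit. edgeR 4.0.16 (quasi-likelihood test, TMM) and limma 3.58.1 (voom) used genes with at least 10 counts in total. Fold changes are not shrunken, and their intervals are 95% intervals. Other alternatives were TMM, total-count and upper-quartile scaling, other filters, a block for the replicate number, and dropping each library in turn. The code was tested on simulated data. Same-numbered libraries were not taken as pairs.

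Every one of the 9 genes is named, and of each other pathway list at most 4 genes with the smallest adjusted p. Some genes that this rule picks are not reported here. The 9 genes, the lists and the tests were chosen with earlier results of these data known. The intervals against 2-fold, the shares of the summed counts, the overlap of groups on the library-total scale and the collecting duct sum without Aqp2 were added after the values were seen. Positions, exon lengths (union over transcripts) and coding sequences came from GENCODE M1 on the mm9 build. Levels per length therefore run low for genes with long minor transcripts. The protein sequences were not used here, except as translations for identity and motif positions.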

Additional observations from a re-analysis of the deposited data

How the results depend on the processing

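Of 135 results for the 9 genes under 15 alternatives, 128 kept their direction and their side of the threshold, 2 passed it and 5 changed sign. Both that passed were Lyrm4, under total-count and upper-quartile scaling (log2 fold change -0.55 and -0.49), so 1 of the 9 genes was lower under each of these. The fits without independent filtering and without the filter for outlier counts left the fold changes and unadjusted p of the 9 genes as they were. Their agreement on direction was therefore fixed in advance and adds nothing to the count of 128. Total-count scaling moved the median of the 9 genes to -0.20 and that of all genes to -0.098. The sign changes all came from leaving out 1 library. Over those 6 fits the log2 fold change ran from -0.048 to 0.25 for Iscu, -0.24 to 0.015 for Nfs1, -0.095 to 0.00097 for Isca2 and -0.26 to 0.016 for Bola3. In the same fits the count of all genes called ran from 1239 (without Control replicate 1) to 3205 (without TfR1 knockout replicate 1), beside 2463 with all libraries, and was 1332 without Control replicate 2 and 1512 without TfR1 knockout replicate 3. edgeR called 875 genes and limma-voom 916, and 707 and 733 of these changed at least 2-fold, beside 1464 with DESeq2. The cause of these shifts was not tested. Replicate numbers are shared between groups, but deviations of same-numbered libraries correlated at -0.0378, 0.0548 and 0.0899 across 15303 genes, under the 0.1 set for pairing. With the replicate block 2172 genes and 0 of the 9 were called, and the adjusted p of Lyrm4 was 0.357 (DESeq2). With 3 libraries per group, the width of the intervals given for each gene limits what could be seen. Levels of RNA do not measure the proteins or cluster assembly itself.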
